A study of Mus musculus with 95 samples.

Results

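The binding of PCGF6 was compared between control cells and cells depleted of MGA, of E2F6 or of both, in mouse embryonic stem cells of the E14 line. The members were the PCGF6 peaks of 5 ChIP-seq lists (chromatin immunoprecipitation followed by sequencing), labelled shCtr, shMGA, shMGAdHLH, shE2F6 and shE2F6-MGAdHLH. A peak was removed if it shared at least 1 base with a PCGF6 peak called in Pcgf6-/- cells, where the antibody has no target. This left 7718 of the 9564 deposited peaks, out of 1189711 peaks in all lists of the series. The series held 95 samples, and each of the 5 conditions was 1 library.

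All cells were kept on gelatin-coated dishes with serum, with leukaemia inhibitory factor (LIF), and with the GSK3β inhibitor and the MEK1/2 inhibitor that the protocol names. Hairpins were delivered with lentivirus in the pLKO.1 vector and infected cells were selected with puromycin, per the labels' protocols. shCtr is the control hairpin, shMGA and shE2F6 name the gene that was depleted, and shE2F6-MGAdHLH joins both names. The labels do not say what dHLH stands for, so the name is kept as given. The 4 lists other than shCtr are called the depleted lists, and shE2F6-MGAdHLH the joint depletion, by their names alone. The extent of depletion and the RNA of the hairpin cells were not analysed here. The Pcgf6-/- line is a Cas9 clone of E14, and the wild-type PCGF6 library is untreated E14.

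PCGF6 is the defining subunit of PRC1.6, a Polycomb complex that also holds the ubiquitin ligase RING1B, MGA, E2F6 with its DP partner, L3MBTL2 and WDR5. MGA carries a T-box domain and a helix-loop-helix domain that pairs with MAX and reads E-boxes, while E2F6 reads E2F elements and lacks the activation domain of other E2F proteins. In embryonic stem cells the complex is best known for keeping genes of the germ line silent. USF1 is another helix-loop-helix factor that reads E-boxes but is no subunit of PRC1.6.

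The control library had far more PCGF6 peaks than any depleted library. After removal of peaks shared with Pcgf6-/-, 6748 peaks were left in shCtr, 47 in shMGA, 429 in shMGAdHLH, 396 in shE2F6 and 98 in shE2F6-MGAdHLH. Untreated wild-type cells had 1389. Removal took 9.43% of the 7451 shCtr peaks but 90.0% of the 468 shMGA peaks, 41.5% of the 733 shMGAdHLH peaks, 28.9% of the 557 shE2F6 peaks and 72.4% of the 355 shE2F6-MGAdHLH peaks. The shMGA list therefore consisted mostly of regions that the antibody also gave without PCGF6.

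Regions of the Pcgf6-/- list served as a measure of how readily each library gave a peak at all. Of its 1042 peaks, 67.2% were called in shCtr, 39.6% in shMGA, 28.8% in shMGAdHLH, 15.1% in shE2F6, 24.6% in shE2F6-MGAdHLH and 45.7% in wild-type. These regions overlapped RING1B in 8.64% of cases and lay at a promoter in 33.1%. The order of the depleted lists by these regions was thus not their order by PCGF6 peaks: shMGA recovered the most of them and shE2F6 the fewest. Read depth and pull-down efficiency are not given in the lists, and their part in the number of peaks was not tested. The lists also differ in how they were written. The shMGA, shMGAdHLH, wild-type and Pcgf6-/- lists give fold enrichment to 2 decimals with generic peak names, whereas shCtr, shE2F6 and shE2F6-MGAdHLH give it to 5 decimals with names of their own. What lies behind these formats was not tested. The shMGA and shMGAdHLH lists thus share a format with the wild-type list and not with shCtr, and whether shCtr is their matched control is not given in the sources used here. Every shMGA or shMGAdHLH value set against shCtr carries this limit.

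Fold enrichment, the authors' ratio of ChIP signal to background at the peak, had a median over the peaks left of 6.41 in shCtr, 7.64 in shMGA, 7.68 in shMGAdHLH, 6.69 in shE2F6 and 6.05 in shE2F6-MGAdHLH. The medians therefore lay close together, while the highest peaks did not. The highest value was 49.3 in shCtr, 14.4 in shMGA, 19.0 in shMGAdHLH, 20.1 in shE2F6 and 10.4 in shE2F6-MGAdHLH, and 43.3 in wild-type. Every list had a lowest -log10 p between 10.0 and 10.1, so each median is bounded from below. That cut is on p and sets no common fold enrichment. The weakest 10% of the peaks left ended at 5.19 in shCtr, 5.45 in shMGA, 6.32 in shMGAdHLH, 5.76 in shE2F6 and 5.48 in shE2F6-MGAdHLH.

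Few shCtr peaks were called again after any depletion. Of the 6748, 382 overlapped a shE2F6 peak (5.66%, 95% Wilson interval 5.13 to 6.24), 318 a shMGAdHLH peak (4.71%, 4.23 to 5.24), 70 a shE2F6-MGAdHLH peak (1.04%, 0.822 to 1.31) and 17 a shMGA peak (0.252%, 0.157 to 0.403). Such intervals cover counting error only, and with 1 library per condition no test between conditions was possible. In all, 608 (9.01%) were called in at least 1 depleted list and 6140 (91.0%) in none. Untreated wild-type cells, which had no hairpin, gave 1309 of the 6748 (19.4%).

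Peaks shared by shE2F6 and shMGAdHLH were fewer than those in only 1 of these 2 lists. A total of 108 shCtr peaks were called in shE2F6 and in shMGAdHLH, 274 in shE2F6 and not shMGAdHLH, 210 in shMGAdHLH and not shE2F6, and 6156 in neither. Only 4 were called in all 4 depleted lists. Their median fold enrichment in shCtr was 18.5 for peaks in both lists, 13.8 for shE2F6 only, 7.90 for shMGAdHLH only and 6.23 for neither.

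The relation to strength differed between shE2F6 and shMGAdHLH. Among the strongest decile of shCtr peaks, 675 peaks with a fold enrichment of 11.3 or more, 42.7% (39.0 to 46.4) were called in shE2F6, 21.5% (18.5 to 24.7) in shMGAdHLH, 5.93% in shE2F6-MGAdHLH and 0.593% in shMGA. In the next decile the shares were 9.78%, 6.37%, 1.93% and 0.296%. In the seventh decile, with fold enrichments from 6.89 to 7.72, no peak of 674 was called in shE2F6 but 4.30% were called in shMGAdHLH. The shE2F6 list thus held mainly the strongest control sites, and the shMGAdHLH list reached further down.

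**Figure D1:**
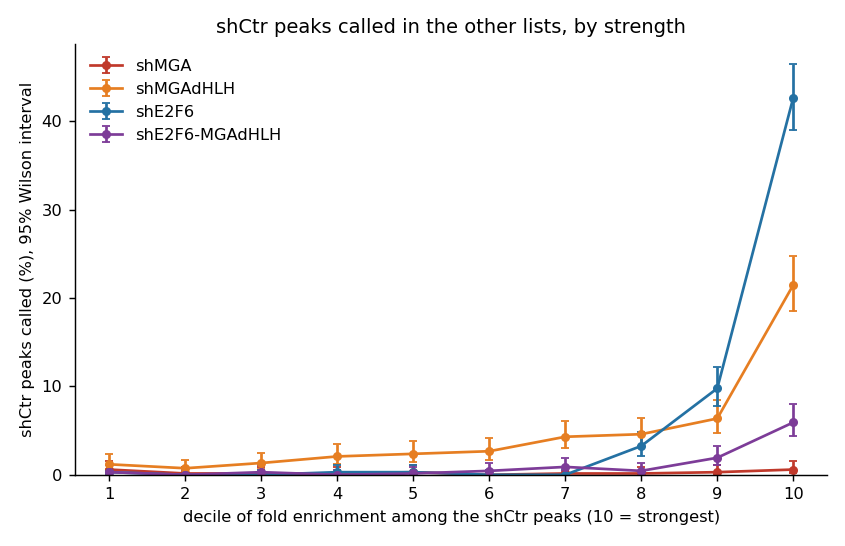
Points give the percentage of shCtr peaks called in each depleted list, by decile of shCtr fold enrichment from weakest (1) to strongest (10), with 95% Wilson intervals. In the strongest decile shE2F6 reaches 42.7% and shMGAdHLH 21.5%, while shMGA stays at 0.593%.

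Read in the other direction, 388 of the 396 shE2F6 peaks (98%) were shCtr peaks, and 339 (85.6%) were wild-type peaks. Of the 429 shMGAdHLH peaks, 331 (77.2%) were shCtr peaks and 218 (50.8%) wild-type peaks. For shMGA this held for 17 of 47 (36.2%) and for shE2F6-MGAdHLH for 71 of 98 (72.4%). Of the shE2F6-MGAdHLH peaks, 61 (62.2%) overlapped a shMGAdHLH peak and 41 (41.8%) a shE2F6 peak. Of the 2, shE2F6 is the list with the same file format.

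The windows that follow are examples from these groups of sites and do not stand for each group as a whole. Each is up to 151 bases around the highest point of the peak, trimmed to the stretch free of annotated exons (for Serf2, only bases before the highest point), from the NCBIM37 genome on the plus strand. Capitals mark the E-box CACGTG, the E2F element GCGGGAA and the T-box element TCACACCT, each searched on both strands. Every window printed here holds a match. Other windows of the same groups held none, among them Syce1 (in shE2F6, not shMGAdHLH) and Dazl, Spo11 and Piwil2 (in both). Of 22352 promoter windows of 151 bases across the genome, 4.51% hold the E-box, 3.24% the E2F element and 0.443% the T-box element. A match is a description of the letters and does not show a bound factor.

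The first pair are germline promoters with a peak in shCtr and shE2F6 but none in shMGAdHLH, and both carry E-boxes.
Mov10l1, chr15:88813076-88813226: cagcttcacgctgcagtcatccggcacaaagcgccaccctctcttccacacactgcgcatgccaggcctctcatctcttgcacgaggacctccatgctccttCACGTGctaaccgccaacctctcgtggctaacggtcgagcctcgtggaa
Fkbp6, chr5:135825945-135826095: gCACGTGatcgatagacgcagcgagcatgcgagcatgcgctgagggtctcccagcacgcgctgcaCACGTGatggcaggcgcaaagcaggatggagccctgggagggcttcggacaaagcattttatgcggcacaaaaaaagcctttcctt
Brdt had a peak in shCtr and shMGAdHLH but none in shE2F6, and its window holds an E-box and a T-box element.
Brdt, chr5:107760028-107760177: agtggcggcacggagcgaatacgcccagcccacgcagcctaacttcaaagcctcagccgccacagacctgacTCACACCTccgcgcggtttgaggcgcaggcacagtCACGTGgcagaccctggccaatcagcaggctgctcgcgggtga
Ddx4, Stk31 and Hdac2 had a peak in shCtr, shMGAdHLH and shE2F6.
Ddx4, chr13:113442247-113442397: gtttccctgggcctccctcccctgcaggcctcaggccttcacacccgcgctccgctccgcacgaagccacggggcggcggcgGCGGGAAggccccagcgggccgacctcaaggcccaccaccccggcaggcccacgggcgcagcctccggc
Stk31, chr6:49345382-49345532: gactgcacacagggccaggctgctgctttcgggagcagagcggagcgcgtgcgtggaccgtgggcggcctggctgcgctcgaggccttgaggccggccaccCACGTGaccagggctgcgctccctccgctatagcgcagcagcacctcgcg
Hdac2, chr10:36693867-36694017: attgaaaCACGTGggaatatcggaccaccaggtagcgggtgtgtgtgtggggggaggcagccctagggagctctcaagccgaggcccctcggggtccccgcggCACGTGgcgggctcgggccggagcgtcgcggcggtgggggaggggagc
The last ones are promoters with a peak in depleted cells and none in shCtr or wild-type.
Ctsd, chr7:149573944-149574073: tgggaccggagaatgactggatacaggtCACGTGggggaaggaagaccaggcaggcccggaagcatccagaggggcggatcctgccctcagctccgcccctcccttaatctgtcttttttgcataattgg
Mcoln1, chr8:3500376-3500456: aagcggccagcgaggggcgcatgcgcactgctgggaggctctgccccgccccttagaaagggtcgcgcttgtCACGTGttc
Serf2, chr2:121274877-121274930: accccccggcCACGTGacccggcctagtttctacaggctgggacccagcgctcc
Sgol1, chr17:53828659-53828760: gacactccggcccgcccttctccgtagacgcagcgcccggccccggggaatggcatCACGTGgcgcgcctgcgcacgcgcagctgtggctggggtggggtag
The highest point of the peak lay at -188 bp from the annotated start of Mov10l1, -125 bp for Fkbp6, -75 bp for Brdt, 196 bp for Ddx4, -146 bp for Stk31 and -408 bp for Hdac2, where a minus sign is upstream. For the other promoters it lay at -55 bp for Ctsd, -6 bp for Mcoln1, 21 bp for Serf2 and -27 bp for Sgol1. All are therefore promoter sites, with those of Ddx4 and Serf2 just inside the gene.

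Germline genes had PCGF6 at their promoters more often than genes at large, and the germline promoters bound again after depletion were mostly strong ones in the control. A list of 77 germline genes was matched to the annotation. A gene counted as bound if any base of a peak lay within 2.5 kb of one of its starts. In shCtr 49 of 77 (63.6%, 52.5 to 73.5) were bound, against 4308 of 22380 protein-coding genes (19.25%). Of these 49, 19 (38.8%) were also bound in shE2F6, 15 (30.6%) in shMGAdHLH, 5 (10.2%) in shE2F6-MGAdHLH and none in shMGA. Over all 4308 genes with a shCtr promoter peak the shares were 8.03%, 7.24%, 1.74% and 0.441%. In untreated wild-type cells 33 of the 49 were bound. No germline promoter gained a peak that shCtr lacked.

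**Figure D2:**
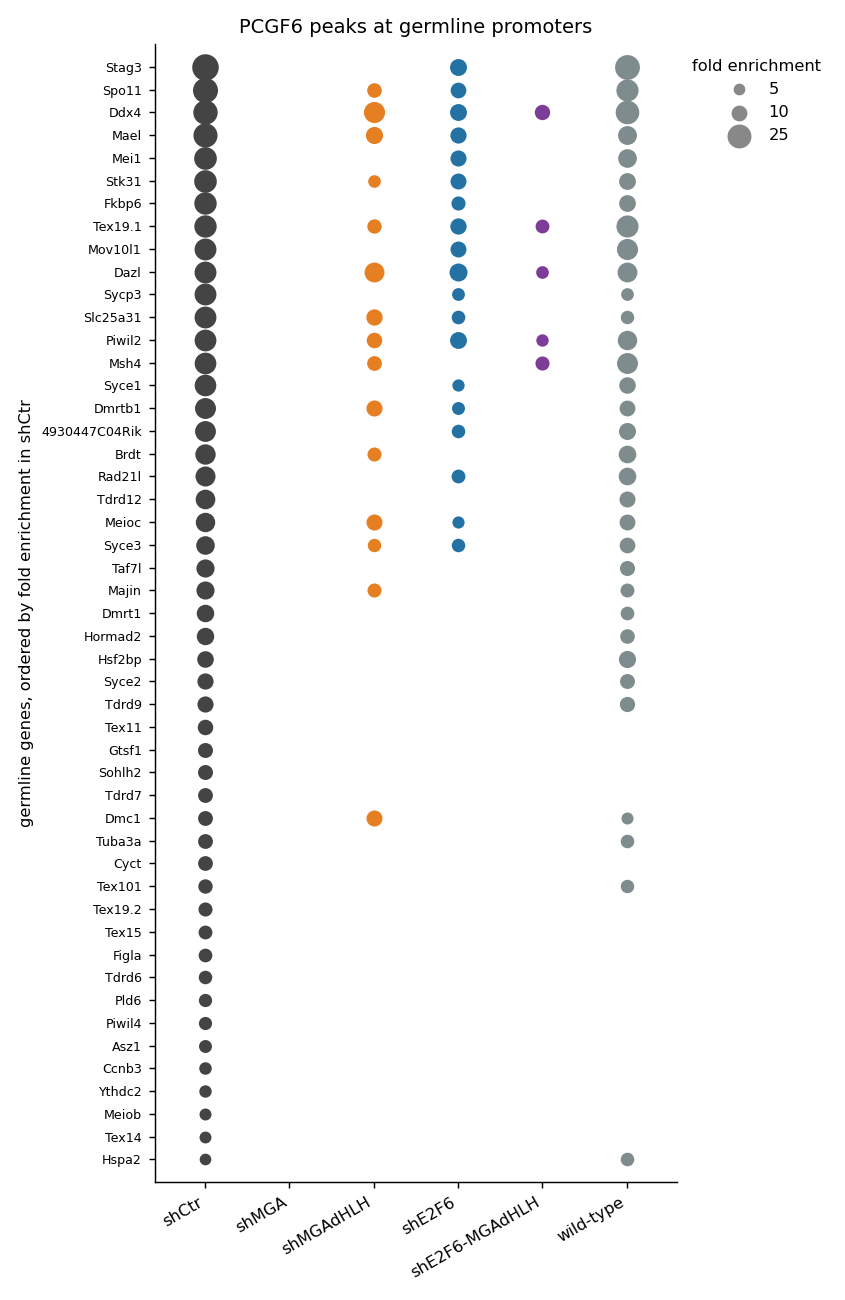
Each row is 1 of the 49 germline genes with a shCtr promoter peak, ordered by fold enrichment in shCtr, and each dot is a promoter peak in the list named below it, with its area growing with fold enrichment. The shMGA column is empty, shMGAdHLH has 15 dots, shE2F6 19 and shE2F6-MGAdHLH 5, most of them in the upper rows.

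A set of 11 of the 49 was bound in both shE2F6 and shMGAdHLH. They were Ddx4 and Dazl, RNA regulators of germ cells, Mael, Piwil2 and Tex19.1, which act in transposon control, Spo11, which makes the DNA breaks of meiosis, Syce3 of the synaptonemal complex, and Dmrtb1, Meioc, Slc25a31 and Stk31. All 11 sites overlapped RING1B in wild-type cells, 10 overlapped WDR5, and only 1 held an E-box within 301 bases of window. 

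At Ddx4 the fold enrichment was 26.0 in shCtr, 19.0 in shMGAdHLH, 11.6 in shE2F6, 9.38 in shE2F6-MGAdHLH and 24.2 in wild-type. At Dazl it was 20.6, 16.7, 13.4, 6.03 and 16.6 in the same order. Mael had 25.4 in shCtr, 12 in shMGAdHLH and 10.6 in shE2F6, and no peak after the joint depletion. At all of these the control library was highest and shMGA had no peak.

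A set of 8 germline promoters was bound in shE2F6 but not in shMGAdHLH, and 6 of the 8 held an E-box. These were Stag3 and Rad21l, cohesin subunits of meiosis, Sycp3 and Syce1 of the synaptonemal complex, Mei1, Mov10l1, a helicase of the piRNA pathway, Fkbp6 and 4930447C04Rik. Their fold enrichment in shCtr ran from 16.9 to 31.2 with a median of 20.6, against 14.4 to 27.5 with a median of 20.6 for the 11. Stag3 had 31.2 in shCtr, 11.7 in shE2F6 and 27.1 in wild-type. Mov10l1 had 20.6, 10.2 and 19.05, and Sycp3 had 20.6, 6.19 and 6.08. None of the 8 had a peak after the joint depletion.

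The converse, a peak in shMGAdHLH but not in shE2F6, was seen at Brdt, a bromodomain protein of the testis, Dmc1, the recombinase of meiosis, Msh4, which acts in crossing over, and Majin (listed as 1700123I01Rik). Of these 4, 1 held an E-box, 2 an E2F element and 1 a T-box element. Msh4 had 20.2 in shCtr, 8.54 in shMGAdHLH, 7.71 in shE2F6-MGAdHLH and 18.7 in wild-type. At Brdt the values were 17.6 in shCtr, 7.60 in shMGAdHLH and 12.8 in wild-type. Dmc1 was the exception in order, with 8.68 in shCtr, 10.3 in shMGAdHLH and 5.33 in wild-type.

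The remaining 26 germline promoters were called in neither shE2F6 nor shMGAdHLH. Their shCtr fold enrichment ran from 4.96 to 16.3 with a median of 8.32, 5 of the 26 overlapped RING1B, 2 held an E-box and 10 had a wild-type peak. They include Asz1, Gtsf1, Piwil4 and Tdrd9 of the piRNA pathway, Taf7l, Sohlh2 and Hormad2. The strongest was Tdrd12 with 16.3 in shCtr and 10.3 in wild-type.

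Among the genes of the complex and of its DNA-binding partners, few kept a promoter peak in a depleted list. Of 26 such genes 10 had a shCtr promoter peak (38.5%, 22.4 to 57.5, against 19.25% of all protein-coding genes). Of the 10, 2 had one in shE2F6 and 2 in shMGAdHLH (20% each, 5.67 to 51.0). The shares over all genes with a shCtr promoter peak were 8.03% and 7.24%. At E2f6 itself the fold enrichment was 23.2 in shCtr, 17.2 in shMGAdHLH and 19.4 in wild-type, and shE2F6 had no peak there. At Mga it was 12.6 in shCtr, 7.58 in shE2F6 and 10.8 in wild-type, and shMGAdHLH had no peak. Both peaks lie in the strongest shCtr decile, of which 42.7% were called in shE2F6 and 21.5% in shMGAdHLH. Most peaks of that strength thus lacked a call in either list, and a link between the 2 genes was not tested. Hdac2, which encodes a histone deacetylase, had the highest shCtr peak of all, at 49.3, with 20.1 in shE2F6, 10.4 in shMGAdHLH and 43.3 in wild-type. Tfdp1, which encodes a DP partner of E2F6, had 13.0 in shCtr and 5.64 in wild-type and no peak in depleted cells. Ehmt2, which encodes a histone H3K9 methyltransferase, had 7.16 in shCtr and 7.44 in shMGA. Pcgf6, Rybp, Yaf2, Mxi1 and Mnt were bound in shCtr alone, at 4.38 to 7.53.

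Promoters called in all 4 depleted lists were Igf2r, Zbtb40 and Hoxa7. Igf2r, a receptor for insulin-like growth factor 2 and for lysosomal enzymes, had 26.3 in shCtr, 9.48 in shMGA, 15.6 in shMGAdHLH, 7.32 in shE2F6 and 9.05 in shE2F6-MGAdHLH. Zbtb40 had 10.7, 8.66, 16.0, 6.69 and 8.04 in the same order, and Hoxa7 had 9.90, 11.6, 11.9, 7.17 and 6.23. All 3 overlapped a USF1 peak of wild-type cells. At Zbtb40 and Hoxa7 the value in shMGAdHLH was above that in shCtr, and at Igf2r below it.

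The strongest control promoters called in none of the depleted lists were Mesdc1 at 25.9, Prdm2 at 24.5, Hspa4l at 23.2, Smap1 at 22.7 and Gnaz at 20.8. All 5 were also called in wild-type cells, at 8.88 to 13.2, all overlapped RING1B and none held an E-box. Among the strongest called in shE2F6 but in neither MGA list were Cmc1 (34.4 in shCtr, 12 in shE2F6), Stag3, Prr19 (26.1 and 10.2) and Rasef (24.1 and 9.85), and 3 of these 4 held an E-box. The promoters called in shMGA and shMGAdHLH but not in shE2F6 were weak in shCtr: Aldh3a2 at 6.28, Slc36a1 at 5.46, Nrd1 at 5.29 and Zmym6 at 5.06. In shMGAdHLH they had 7.99, 9.63, 8.80 and 12.8, and all 4 overlapped USF1.

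In shCtr the counts of cell cycle and pluripotency genes lay near the share over all genes. The genes named in this paragraph were chosen after their values were seen. Developmental regulators differed from genes at large in shCtr, where 38 of 47 (80.9%) had a promoter peak, mostly weak. In untreated wild-type cells only 8 of these 38 (21.1%) were bound, against 25.4% of all genes with a shCtr promoter peak. Of the 38, 5 (13.2%, 5.75 to 27.3, against 7.24% of all genes with a shCtr promoter peak) had one in shMGAdHLH (Hoxd9, Gata6, Foxa2, Neurog1 and Wnt1), 2 in shE2F6 (5.26%, 1.46 to 17.3, against 8.03%; Cdx2 among them), 1 in shE2F6-MGAdHLH (Pax9) and none in shMGA. Of 48 cell cycle genes driven by E2F factors 8 were bound in shCtr (16.7%, against 19.25% of all protein-coding genes), none in shE2F6 and 1, Rbl1, in shMGAdHLH. Of 20 pluripotency genes 3 (15%) were bound in shCtr and none after depletion.

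The make-up of the lists differed, and the untreated wild-type list, without a hairpin, also differed from shCtr. A RING1B peak of wild-type cells was overlapped by 40.7% (39.6 to 41.9) of shCtr peaks, 75.5% (71.0 to 79.5) of shE2F6 peaks, 53.4% (48.7 to 58.0) of shMGAdHLH peaks, 53.1% (43.3 to 62.6) of shE2F6-MGAdHLH peaks and 10.6% (4.63 to 22.6) of shMGA peaks. For USF1 the shares were 19.3%, 37.1%, 40.1%, 49.0% and 57.4% in the same order. For WDR5 they were 17.0%, 68.9%, 40.6%, 45.9% and 14.9%. In the wild-type list the shares were 59.3% for RING1B, 27.3% for USF1 and 47.5% for WDR5, all above those of shCtr. Of the 5 lists as filtered here, shE2F6 had the highest share with RING1B and WDR5, and shMGA the lowest with RING1B and the highest with USF1. With peaks shared with Pcgf6-/- kept, the USF1 share of shMGA was 15.2%, below the 29.3% of shMGAdHLH, 32.3% of shE2F6 and 24.2% of shE2F6-MGAdHLH.

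Promoters made up 66.8% of shCtr peaks, 78.3% of shE2F6, 81.8% of shMGAdHLH, 85.7% of shE2F6-MGAdHLH and 63.8% of shMGA peaks. An E-box lay within 150 bases of the highest point in 25.6%, 40.7%, 34.3%, 36.7% and 51.1% of them, against 7.29% of all promoter windows of 301 bases. The E2F element was found in 8.33%, 11.6%, 11%, 12.2% and 6.38%, against 6.19%. Peaks of PCGF3, the subunit of another Polycomb complex, were overlapped by 1.2%, 10.4%, 17.9%, 35.7% and 36.2%. In the wild-type list promoters made up 75.5%, the E-box 32.3%, the E2F element 13.2% and PCGF3 3.10%.

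Since the lists differ in length, the 47 peaks of highest -log10 p were also taken from each. RING1B was then overlapped by 100% of the shCtr peaks, 97.9% of shE2F6, 72.3% of shMGAdHLH, 46.8% of shE2F6-MGAdHLH and 10.6% of shMGA. USF1 was overlapped by 34.0%, 40.4%, 46.8%, 55.3% and 57.4%. With shCtr above shE2F6 in this setting, the order of the 5 lists by RING1B was the reverse of their order by USF1.

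Within the strongest decile of shCtr peaks, the share called again was higher for those with RING1B. Of 450 such peaks with RING1B, 53.6% (48.9 to 58.1) were called in shE2F6 and 28.2% (24.3 to 32.6) in shMGAdHLH, against 20.9% (16.1 to 26.7) and 8.00% (5.12 to 12.3) of the 225 without. With USF1 the shares were 51.1% and 22.7%, without it 38.4% and 20.9%. With WDR5 they were 52.2% and 25.6%, without it 24% and 13.5%. Support by the wild-type library moved with the result as well: of 573 peaks called in wild-type, 48.0% were called in shE2F6 and 24.3% in shMGAdHLH, against 12.7% and 5.88% of the 102 not called there. Strength was not matched within the decile. With RING1B the median shCtr fold enrichment was 17.7 for peaks called in shE2F6 and 13.4 for the others, without it 14.2 and 12.6. With WDR5 these medians were 17.8 and 13.6, without it 13.8 and 12.5.

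Sites called in only 1 of shE2F6 and shMGAdHLH differed in E-boxes. In the strongest decile an E-box was present at 45.4% (38.6 to 52.4) of the 196 peaks called in shE2F6 only and at 15.1% (7.85 to 27.1) of the 53 called in shMGAdHLH only. It was present at 32.6% of the 92 called in both and 37.7% of the 334 called in neither. The E2F element lay at 14.3%, 18.9%, 16.3% and 11.4% of these groups, with overlapping intervals. RING1B was overlapped by 92.4% of peaks called in both lists, 79.6% of shE2F6 only, 79.2% of shMGAdHLH only and 50.0% of neither. With a window of 151 bases the E-box shares were 35.2%, 11.3%, 25% and 29.3% for shE2F6 only, shMGAdHLH only, both and neither.

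**Figure D3:**
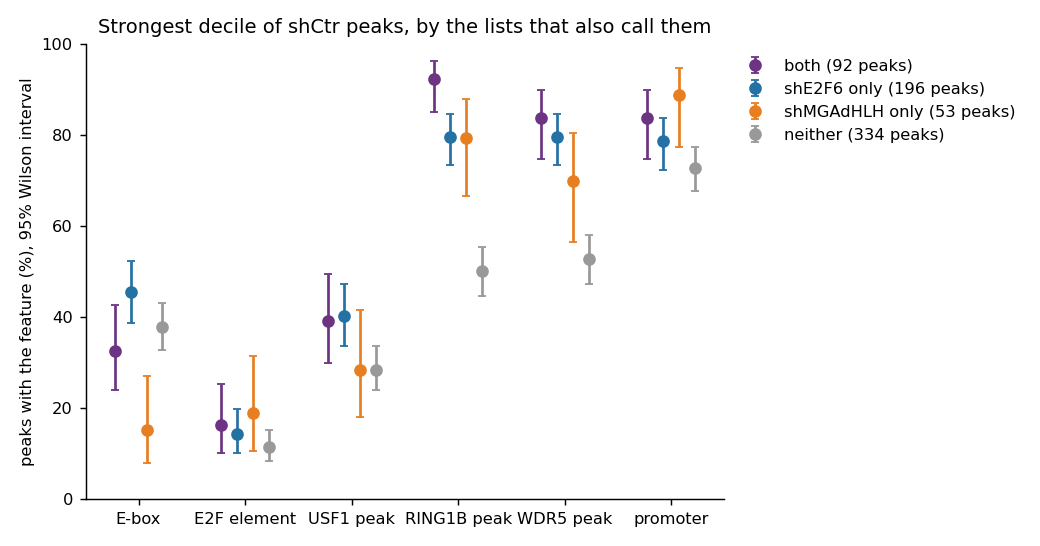
Points give the percentage of peaks with each feature in the strongest decile of shCtr peaks, split by whether shE2F6 and shMGAdHLH also called them, with 95% Wilson intervals. E-boxes lie at 45.4% of peaks called in shE2F6 only and 15.1% of peaks called in shMGAdHLH only, and RING1B at 92.4% of peaks called in both and 50.0% of those in neither.

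RING1B calls at these sites were also compared with those in Pcgf6-/- cells. Of the 5454 RING1B peaks of wild-type cells, 75.9% were called in Pcgf6-/- cells too. Of the PCGF6 peaks that overlapped RING1B, a RING1B peak was also called in Pcgf6-/- at 70.4% of 2748 in shCtr, 45.9% of 229 in shMGAdHLH, 30.8% of 299 in shE2F6 and 44.2% of 52 in shE2F6-MGAdHLH. The shCtr list holds mostly weak sites, so the strongest decile was read on its own. There a RING1B peak was also called in Pcgf6-/- at 37.1% (30.2 to 44.7) of the peaks with RING1B called in neither shE2F6 nor shMGAdHLH, 25% (18.9 to 32.3) of shE2F6 only, 21.4% of shMGAdHLH only and 21.2% of both. These intervals overlap. Strength was not matched within this decile: the median shCtr fold enrichment was highest for peaks called in both lists and lowest for neither. These classes are also not the whole lists given above, so their shares cannot be set against those of the lists.

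Some peaks of the depleted cells were called in neither shCtr nor wild-type. They numbered 97 of 429 in shMGAdHLH, 30 of 47 in shMGA, 27 of 98 in shE2F6-MGAdHLH and 8 of 396 in shE2F6. Merged across lists they formed sites of which 110 were called in 1 list, 23 in 2 and 2 in 3. In shMGAdHLH, 64.9% (63 of 97) of them overlapped USF1, against 32.8% (109 of 332) of its other peaks. An E-box lay at 62.9% against 25.9%, PCGF3 at 36.1% against 12.7% and RING1B at 14.4% against 64.8%. Their median fold enrichment, 7.41, was close to the 7.97 of the other peaks.

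The same contrast was present after the joint depletion, whose file format is that of shCtr. Of its 27 peaks absent from shCtr and wild-type, 66.7% overlapped USF1 and 18.5% RING1B, against 42.3% and 66.2% of the other 71. In shMGA the 30 such peaks had no RING1B overlap and 53.3% overlapped USF1, while the other 17 had 29.4% and 64.7%. In shE2F6 the 8 had no RING1B overlap and 4 overlapped USF1.

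**Figure D4:**
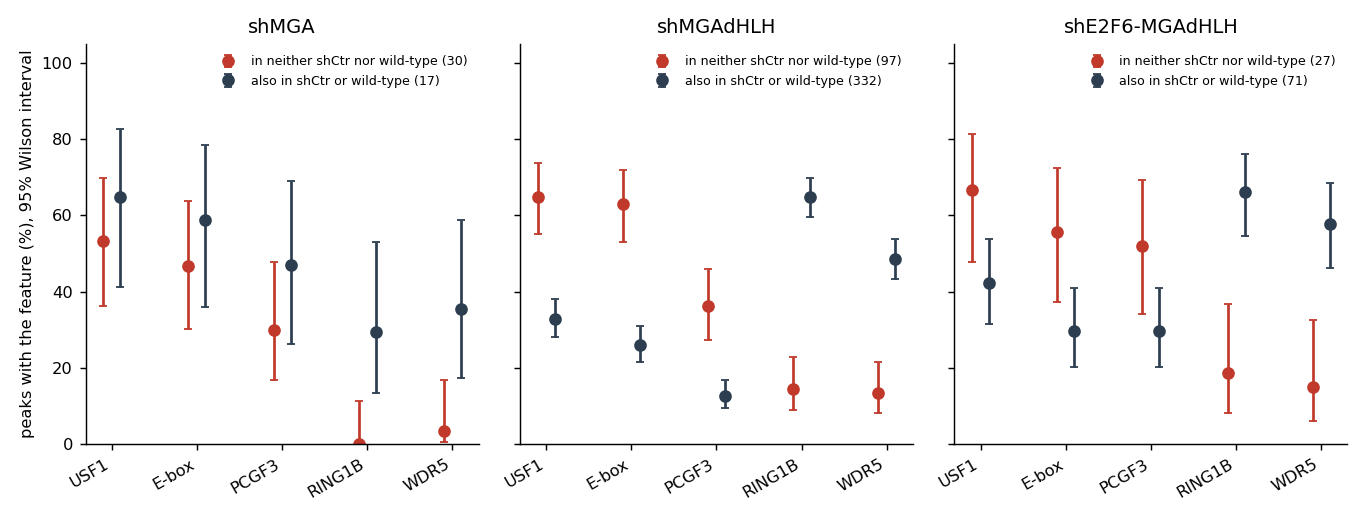
Points give the percentage of peaks that overlap each wild-type peak set or hold an E-box, with 95% Wilson intervals, for peaks in neither shCtr nor wild-type and for the other peaks of the same list. In shMGAdHLH the first kind has USF1 at 64.9% and RING1B at 14.4%, and the second 32.8% and 64.8%.

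A few of these promoters belong to lysosomal genes. Of the 64 genes with a promoter peak in shMGAdHLH and none in shCtr or wild-type, 4 were on a list of 46 metabolic and lysosomal genes known for control by E-boxes, and all 4 were lysosomal. Ctsd, which encodes the protease cathepsin D, had 9.07 in shMGA and 11.2 in shMGAdHLH. Mcoln1, which encodes a cation channel of the lysosome, had 8.74 in shMGAdHLH and 7.60 in shE2F6-MGAdHLH. Lamp1 of the lysosomal membrane, chosen after its values were seen, had 9.18 and 6.96 in those 2 lists. Of the 46, 20 (43.5%) were bound in shCtr, 6 (13.0%) in shMGAdHLH, 5 (10.9%) in shE2F6-MGAdHLH and 2 each (4.35%) in shMGA and shE2F6. Over all protein-coding genes the shares were 19.25%, 1.69%, 0.416%, 0.152% and 1.56%. Atp6v1h, a subunit of the proton pump of the lysosome, had 9.95 in shCtr, 14.4 in shMGAdHLH, 7.04 in shE2F6, 7.04 in shE2F6-MGAdHLH and 7.62 in wild-type.

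Other promoters of this kind were Serf2, with 11.6 in shMGAdHLH, 6.69 in shE2F6 and 5.70 in shE2F6-MGAdHLH, and Sgol1, which protects cohesin at centromeres, with 8.61 in shMGA, 9.68 in shMGAdHLH and 8.41 in shE2F6-MGAdHLH. March8 had 9.07 in shMGA and 7.04 in shE2F6-MGAdHLH, and Socs2, an inhibitor of cytokine signalling, had 6.69 in shE2F6. All 4 overlapped USF1 and held an E-box. At P2rx7 and Phc2 the promoter also held a shCtr peak, so that only part of the region was absent from the control. The highest P2rx7 value was 5.48 in shCtr, 15.6 in shMGAdHLH and 7.71 in shE2F6-MGAdHLH, and at Phc2 it was 6.56 in shCtr and 9.07 in shMGA.

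The genes next to these sites were then read in Pcgf6-/- cells, since RNA of the hairpin cells was not analysed here. Wild-type and Pcgf6-/- cells had 2 RNA-seq libraries each, with 6292628 to 7494996 counts. The labels do not say whether these came from separate cultures, so p-values measure the spread between these libraries. Expression is given in CPM, counts scaled to the size of the library. The 2 wild-type values of Pcgf6 itself were 36.2 and 34.3 CPM, and both Pcgf6-/- libraries were at 0. Across 15464 genes tested with edgeR's quasi-likelihood test, 27.8% were raised and 18.6% lowered at a Benjamini-Hochberg adjusted p below 0.05. Summed markers of 2-cell-like cells (2 genes) were 75.1 and 75.7 CPM in wild-type and 233 and 271 in Pcgf6-/-. Those of primitive endoderm (4 genes) were 1.71 and 1.97 against 11.5 and 8.89, with 3 at 0 in both wild-type libraries. Trophoblast markers (3) were 90.3 and 94.8 against 42.7 and 41.8. Of these only Cdx2 was lower in Pcgf6-/-, at 71.1 and 77.8 CPM against 4.61 and 6.13, while Elf5 and Tfap2c were higher. Fibroblast markers (3) were 10.6 and 7.45 against 27.9 and 24.1, and stem cell markers (6) 1159 and 1170 against 1077 and 1164. The part of these cells in the results was not tested, and in bulk RNA fewer cells of a type and less RNA per cell cannot be told apart.

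Among genes with a shCtr promoter peak, those also called in shE2F6 and in shMGAdHLH had the largest share raised. Of 89 tested, 52 were raised (58.4%) and 7 lowered, with a median log2 difference of 0.67 against 0.026 over all genes. With a promoter peak in shE2F6 but not shMGAdHLH 70 of 192 were raised (36.5%), with the reverse 54 of 157 (34.4%) and with neither 1033 of 3010 (34.3%). Of the 31 tested genes with a shMGA promoter peak 5 were raised (16.1%). All shCtr promoter genes gave 1209 raised (35.1%) and 568 lowered (16.5%) of 3448. The number lowered was 872 with the 4 wild-type and Pcgf6-/- libraries fitted alone and 378 without Pcgf6-/- replicate 2. The groups called in only shE2F6, only shMGAdHLH or neither were thus within a few points of each other and above the 27.8% of all genes. The few shMGA genes, at 16.1%, were below it. Genes with a wild-type promoter peak had 370 of 891 raised (41.5%). Strength was not matched: shCtr peaks called in both lists had a median fold enrichment of 18.5, and those in neither 6.23. The group called in both also holds the 11 germline genes named above, of which Spo11 and Tex19.1 were not tested. The part of strength and of germline genes in its share was not tested.

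Germline genes were raised largely irrespective of which lists called them. Of those with a shCtr promoter peak 30 of 44 tested were raised (68.2%) and 3 lowered, and of those without one 19 of 25 (76.0%) and 2. Among the bound ones, 14 of 20 were raised where shE2F6 or shMGAdHLH also had a peak, and 16 of 24 where they did not. Tex19.1 and Tex19.2 were not analysed here in RNA, and Rad21l, Spo11 and Tdrd6 had too few counts for the test.

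Ddx4 had 16.1 and 15.2 CPM in wild-type and 224 and 250 in Pcgf6-/- (log2 difference 3.92, SE 0.13, adjusted p 1.14e-10). Mael went from 20.1 and 23.9 to 194 and 220 CPM, and Dazl from 30.2 and 31.5 to 171 and 191. At these 3 genes, bound in shE2F6 and shMGAdHLH and not in shMGA, the groups were far apart. Mov10l1, bound in shE2F6 only, had 12 and 10.1 against 198 and 204 CPM (4.18, SE 0.16, adjusted p 3.00e-10), and Sycp3 had 14 and 12.9 against 101 and 112. Brdt, bound in shMGAdHLH only, had 9.42 and 9.28 against 76.6 and 78.4 (3.05, SE 0.15, adjusted p 1.61e-09).

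Not every bound germline gene was raised. Stag3, with the highest germline peak of shCtr, had 87.3 and 83.3 CPM in wild-type and 67.6 and 57.3 in Pcgf6-/- and was lowered (log2 difference -0.45, SE 0.12, adjusted p 0.0073). That call was lost when wild-type replicate 1 (-0.42) or Pcgf6-/- replicate 2 (-0.34) was left out. Dmc1 had a log2 difference of 0.09 (adjusted p 0.65), Fkbp6 one of 0.36 (adjusted p 0.085) and Msh4 one of -1.51 (adjusted p 0.089), none of which passed.

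The partner genes gave values in both directions. Mga was lowered, from 226 and 216 to 112 and 114 CPM (log2 difference -0.97, SE 0.12, adjusted p 1.43e-05). E2f6 was raised, from 12.8 and 13.6 to 20.9 and 20.2 CPM (0.64, SE 0.22, adjusted p 0.026), a call lost when any 1 of the 4 libraries was left out (0.59 to 0.68). Hdac2, with the strongest peak, had a log2 difference of 0.19 (adjusted p 0.16). Of the promoters called in shE2F6 and no MGA list, Prr19 was raised from 6.71 and 6.61 to 26.5 and 23.6 CPM (log2 difference 1.91, SE 0.17, adjusted p 7.24e-07), while Cmc1, the strongest, did not pass (0.27, adjusted p 0.23). Of those called in no depleted list, Hspa4l was raised from 5.56 and 3.24 to 21.7 and 22.4 CPM (2.32, SE 0.25, adjusted p 3.22e-06). Of the other 4, Mesdc1 (-0.47, adjusted p 0.18), Prdm2 (0.31, adjusted p 0.071) and Gnaz (0.76, adjusted p 0.26) did not pass. Smap1 (0.45, adjusted p 0.028) passed, and not when any 1 of the 4 libraries was left out or with no filter on low counts.

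Genes whose promoter was bound in shMGAdHLH but neither in shCtr nor in wild-type went the other way. Of 56 tested, 21 were lowered (37.5%) and 4 raised, against 18.6% and 27.8% of all genes, with a median log2 difference of -0.27. Fewer were lowered when wild-type replicate 1 or Pcgf6-/- replicate 1 was left out. With the 4 wild-type and Pcgf6-/- libraries fitted alone 33 of 55 were lowered. In that fit the lowered genes with a shCtr promoter peak also rose in number, from 568 to 872. The share of all genes lowered in these other fits is not given here, and the 18.6% holds for the main fit only. For shE2F6-MGAdHLH 4 of 14 were lowered and 1 raised, and for shMGA none of 13 passed in either direction with edgeR (3 at an unadjusted p below 0.05, 0 with DESeq2). Ctsd (-0.08), Mcoln1 (-0.23), Serf2 (-0.11) and Sgol1 (-0.34) did not pass. Socs2 was lowered from 111 and 116 to 83.7 and 80.9 CPM (log2 difference -0.46, SE 0.13, adjusted p 0.0099), and not when wild-type replicate 2 or Pcgf6-/- replicate 2 was left out.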

How the data were processed

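ChIP-seq peaks and poly-A RNA-seq of mouse E14 embryonic stem cells were used. The authors deposited 1 narrowPeak list per library on mm9 (NCBIM37), with each peak's fold enrichment (a ratio), its -log10 p and its -log10 q. The submitters' processing notes name Bowtie 1.2.2, Picard 1.62 and MACS2 2.1.1, TopHat2 2.1.1, HTSeq 0.7.2 and DESeq2 3.7, and bcl2fastq 2. The authors also deposited whole-number counts per gene for 14 RNA libraries, with totals of 2147968 to 7848161. No column of these tables was left without a sample (0 unmapped).

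Peak lists were compared by an overlap of at least 1 bp, with Python 3.11.15, pandas 2.3.3, numpy 2.4.6, pysam 0.24.0 and Wilson intervals from statsmodels 0.14.6 (figures: matplotlib 3.10.9). Fold enrichments were set side by side and never tested, since read depth is not given in the lists. A gene's value in a list is its highest promoter peak. Promoters reach 2.5 kb from any annotated start of a protein-coding gene. Motifs were searched within 150 bases of the highest point of a peak. Of 81 germline symbols 77 matched the annotation, 3 of them under older names (Majin, Meioc and Meiob). Counts, after edgeR's filterByExpr with its default minimums, were fitted in R 4.3.3 with edgeR 4.0.16 over all 14 libraries of 7 groups with 1 shared spread, and DESeq2 1.42.0 was an alternative. The script was tested on simulated counts.

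The members and lists were chosen with earlier results of these data known. Named genes were the germline and partner genes with a shCtr promoter peak, the 5 strongest shCtr promoters of each class (called in all 4 other lists, in none, in shE2F6 but in neither MGA list, or in both MGA lists and not shE2F6), and the 3 strongest promoters per depleted list outside shCtr and wild-type. Alternatives were peaks shared with Pcgf6-/- kept, equal numbers of peaks, a stricter q, an overlap of 50%, a promoter window of 1 kb, and for counts other scalings, filters and left-out libraries. A few genes that the rule or the lists hold are not reported here.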

Additional observations from a re-analysis of the deposited data

How the results depend on the processing

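The order of the 4 depleted lists by the share of shCtr peaks called again (shE2F6, shMGAdHLH, shE2F6-MGAdHLH, shMGA) held with an overlap of 50% (2.58%, 2.27%, 0.326% and 0.119%), with peaks of -log10 q of at least 10 only (4.08%, 2.56%, 0.348% and 0.0746%), with the 47 strongest peaks of each list (59.6%, 31.9%, 17.0% and 6.38%) and with the wild-type list in place of shCtr (24.2%, 15.3%, 4.03% and 0.576%), an alternative chosen after seeing the data. It did not hold when peaks shared with Pcgf6-/- were kept: shMGAdHLH then had 8.04%, shE2F6 7.19%, shMGA 5.45% and shE2F6-MGAdHLH 4.31%. With those peaks kept, promoter shares were 64.0% in shCtr, 32.9% in shMGA, 64.7% in shMGAdHLH, 68.0% in shE2F6 and 48.7% in shE2F6-MGAdHLH. RING1B overlap was then 37.9% in shCtr, 36.6% in shMGAdHLH, 59.1% in shE2F6 and 21.4% in shE2F6-MGAdHLH, and USF1 overlap 15.2% in shMGA, 29.3% in shMGAdHLH, 32.3% in shE2F6 and 24.2% in shE2F6-MGAdHLH. With equal numbers of peaks, shCtr had 89.4% promoters, 100% RING1B and 34.0% USF1, shMGAdHLH 89.4%, 72.3% and 46.8%, and shE2F6 97.9% RING1B. With an overlap of 50%, shCtr had 39.2% RING1B and 12.7% USF1. With stricter peaks, shCtr had 69.4% promoters, 43.0% RING1B and 22.8% USF1, shMGAdHLH 89.2% promoters and 54.7% USF1, and shE2F6 89.3% RING1B. A promoter window of 1 kb gave 61.2% in shCtr and 75.8% in shMGAdHLH. The cause of these shifts was not tested.

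Among genes with a shCtr promoter peak, leaving out 1 library gave 963 to 1043 raised and 378 to 414 lowered, the lowest without Pcgf6-/- replicate 2. Fitting the wild-type and Pcgf6-/- libraries alone gave 1475 raised and 872 lowered. In that fit Fkbp6 (0.37), Hdac2 (0.20), Mcoln1 (-0.22) and Sgol1 (-0.34) also passed the threshold, and Fkbp6 did so with RLE scaling (0.39). The other scalings, filters and DESeq2 stayed within 1.5 times. Replicate numbers did not pair the libraries: deviations of same-numbered wild-type and Pcgf6-/- libraries correlated at 0.033. With a replicate block 1167 were raised and 542 lowered. ChIP depth is not known, and with 1 library per condition none of the peak comparisons has a replicate check.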
